A study of Mus musculus with 28 samples.

Results

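Dendritic cells stimulated with lipopolysaccharide (LPS) for 4 h were compared with mock-stimulated cells of the same time, across all 3147 gene rows of the RNA table. The comparison used 4 of the 28 samples of the series, of which 26 are RNA libraries, chosen by the treatment and time given in their titles and time fields. LPS cells (2 libraries) were stimulated with 100 ng per ml of ultrapure LPS of E. coli K12. Mock cells (2 libraries) received no stimulus. Cells of both groups were grown with GM-CSF from the bone marrow of female C57BL/6J mice aged 6 to 8 weeks, the non-adherent and loosely bound cells were kept, and stimulation began on day 9. The culture medium was also exchanged in both groups at time 0, for isotope labelling of protein. Groups at 2 h and 6 h of both treatments and unstimulated cells at 0 h, again 2 libraries each, served to place the 4 h response in time. One label disagrees: the description of each 4 h sample points to hour 5. Titles, time fields and table columns give 4 h, and 4 h was used. The labels do not say whether replicates 1 and 2 came from separate mice or cultures, and the spread behind each p-value may therefore be technical.

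LPS, an outer membrane lipid of Gram-negative bacteria, is recognised by Tlr4 with Cd14 and Md-2. The receptor signals through Myd88 to NF-kB and the MAP kinases, which drive inflammatory cytokine genes, and through Trif to Irf3, which drives type I interferon. Secreted interferon then acts back on the cells through its receptor and a transcription factor complex with Irf9, which binds the interferon-stimulated response element of antiviral genes. In dendritic cells the response also includes maturation, in which uptake of antigen falls and presentation and costimulation rise.

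RNA levels were deposited in TPM, a transcript abundance corrected for transcript length with a fixed total of 1000000 in each library, so sequencing depth is unknown. Replicates correlated across genes with a Pearson r of 0.966 for LPS cells and 0.98 for mock cells on the log2 scale. Of 12 dendritic cell markers, 5 were measured (Itgax, Cd74, H2-Aa, H2-Ab1 and Irf4) and 0 were called, and their summed level was 19326 and 11713 TPM in LPS cells, against 15492 and 12663 TPM in mock cells. The neutrophil granule markers, 8 of 15 measured, summed to 4783 and 2313 TPM in LPS cells and 11152 and 3107 TPM in mock cells, higher in replicate 1 of both groups. None of the 8 was called, and their median log2 fold change was -0.34, beside -0.46 for all genes. In a fit with a replicate block S100a8 (-1.28, adjusted p = 0.00131) and Ltf (-1.26, adjusted p = 0.028) were called lower in LPS cells. That fit called 1414 genes lower among all genes tested, so these calls do not set the granule markers apart. Lcn2, of the same list, went the other way (1.02 ± 1.10) and was not called in the main fit. The macrophage markers, 5 of 13 measured, summed to 1413 and 1050 TPM in LPS cells and 1758 and 1590 TPM in mock cells. Fcgr1 rose and Csf1r fell among them, and both calls were lost when 1 library was left out (adjusted p up to 0.176 without mock replicate 2 for Fcgr1 and 0.224 without LPS replicate 2 for Csf1r). Of the B cell, T and NK cell and mast cell markers 0 were measured. Of 9 erythroid markers 1 was measured, Car2, with 68.2 and 36.3 TPM in LPS cells, against 25.6 and 13.4 TPM in mock cells, and its rise was lost without LPS replicate 1 (adjusted p = 0.154) or mock replicate 2 (0.164). The 2 of 7 plasmacytoid dendritic cell markers that were measured summed to 1534 and 2098 TPM in LPS cells, against 503 and 577 TPM in mock cells, and 1 rose, Bst2, which is also on the list of antiviral interferon-stimulated genes. The part of other cell types in the results was not tested, and in bulk RNA fewer cells of a type and less RNA per cell cannot be told apart.

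LPS cells expressed 275 genes more strongly than mock cells at 4 h, 8.74% of the genes tested, and 918 genes more weakly, 29.2%. Both LPS libraries lay above both mock libraries for 488 genes (15.5%) and below them for 1832 (58.2%). The rises were fewer and larger. Their median log2 fold change was 1.51, with 213 past 2-fold, 100 past 4-fold and 23 past 16-fold, whereas the falls had a median of -1.17, with 593 past 2-fold, 98 past 4-fold and 1 past 16-fold. The risen genes held 17.6% and 18.5% of all TPM in LPS cells, against 3.74% and 3.5% in mock cells. The fallen genes held 9.55% and 8.66% in LPS cells, against 16% and 16.5% in mock cells. Calls came from limma's moderated test on log2(TPM + 1), with p-values adjusted by Benjamini-Hochberg across the 3147 genes and a threshold of 0.05. Fold changes below are on that scale, LPS minus mock, with a moderated standard error (SE). The SE of a gene rests on its spread pooled over all 13 groups of 2 libraries, not on the 4 h groups alone.

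Because the total is fixed, a gain in some genes lowers the TPM of all others. The median gene stood at -0.46 on the log2 scale, and how much of this came from the fixed total was not tested. Rescaling each library to the median ratio of its genes moved that median to -0.01 and gave 445 genes higher (14.1%) and 405 lower (12.9%). Quantile normalization moved it to -0.15 and gave 368 higher (11.7%) and 442 lower (14%). All 275 rises were called after median-ratio rescaling too, and 405 of the 918 falls were. Rescaling divided the LPS libraries by 0.8465 and 0.8258 and the mock libraries by 1.187 and 1.105. It thus raised nearly every fold change and could hardly remove a rise, so calls after rescaling put only the falls to a test. Leaving out 1 library at a time gave 207 to 235 rises, and 580 falls without LPS replicate 2, 581 without mock replicate 1, 704 without mock replicate 2 and 742 without LPS replicate 1. In all 4 of these fits 186 of the rises and 445 of the falls were called. For each list of genes below, the falls called after rescaling too are therefore given beside the count. Rises in a list are to be read beside the 8.74% of all genes that rose.

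**Figure D1:**
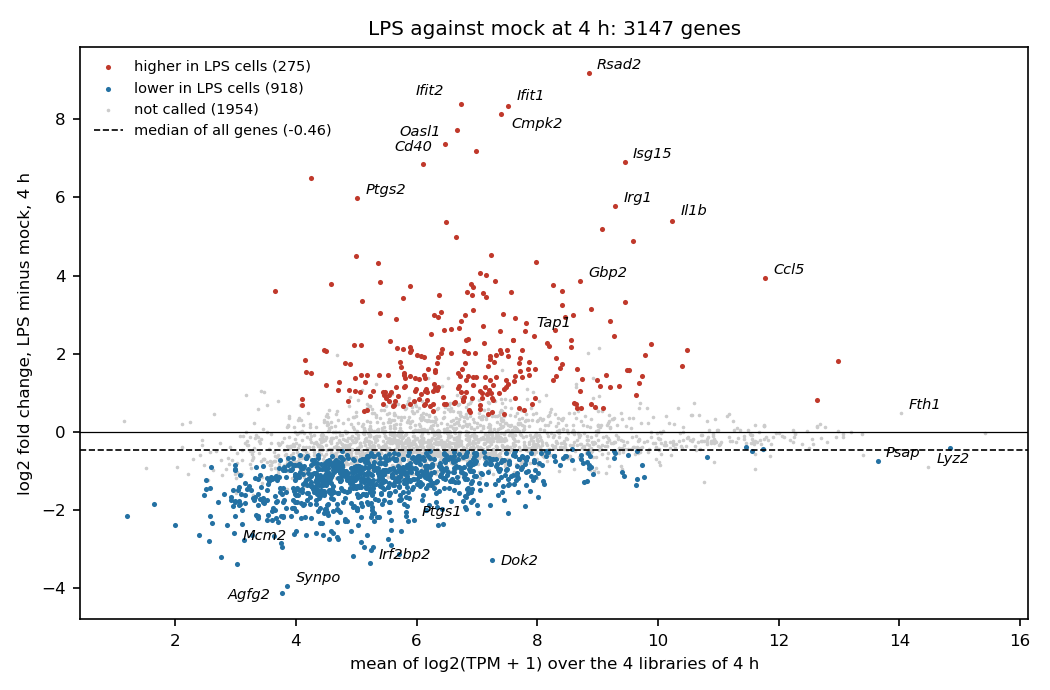
Each point is 1 of 3147 genes, with its mean log2(TPM + 1) over the 4 libraries of 4 h on the x axis and its log2 fold change, LPS minus mock, on the y axis. The 275 rises (red) reach 9.19 for Rsad2, the 918 falls (blue) reach -4.13 for Agfg2, and the dashed line at -0.46 is the median of all genes.

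The gene with the largest rise was Rsad2, which encodes viperin, an enzyme that makes a chain-terminating nucleotide against viral replication. It had 9798 and 12641 TPM in LPS cells, against 13.1 and 24.9 TPM in mock cells, a log2 fold change of 9.19 ± 0.55 (adjusted p = 1.88e-09). Its genomic neighbour Cmpk2, a nucleotide kinase that supplies viperin's substrate, had 2748 and 2943 TPM in LPS cells and 6.90 and 11.8 TPM in mock cells. Both genes were low in both mock libraries and high in both LPS libraries. The Ifit genes, whose proteins bind viral RNA and block its translation, came next. Ifit2 had 1758 and 2174 TPM in LPS cells, against 3.78 and 6.04 TPM in mock cells, with a change of 8.40 ± 0.33. Ifit1 had 2752 and 3916 TPM in LPS cells, against 5.97 and 13.8 TPM in mock cells, with a change of 8.34 ± 0.39. Ifit3 had 715 and 772 TPM in LPS cells, against 4.79 and 6.03 TPM in mock cells, with a change of 6.87 ± 0.67. The LPS libraries of each Ifit gene lay above both mock libraries, which was a condition for the 15 largest rises. Isg15, a ubiquitin-like protein that is conjugated to other proteins, had 6589 and 8843 TPM in LPS cells, against 58.1 and 67.6 TPM in mock cells, a change of 6.91 ± 0.33. Of the 15 largest rises, 9 were on the list of antiviral interferon-stimulated genes. The others were Cd40, Iigp1, Ptgs2, Irg1, Il1b and Il1a.

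**Figure D2:**
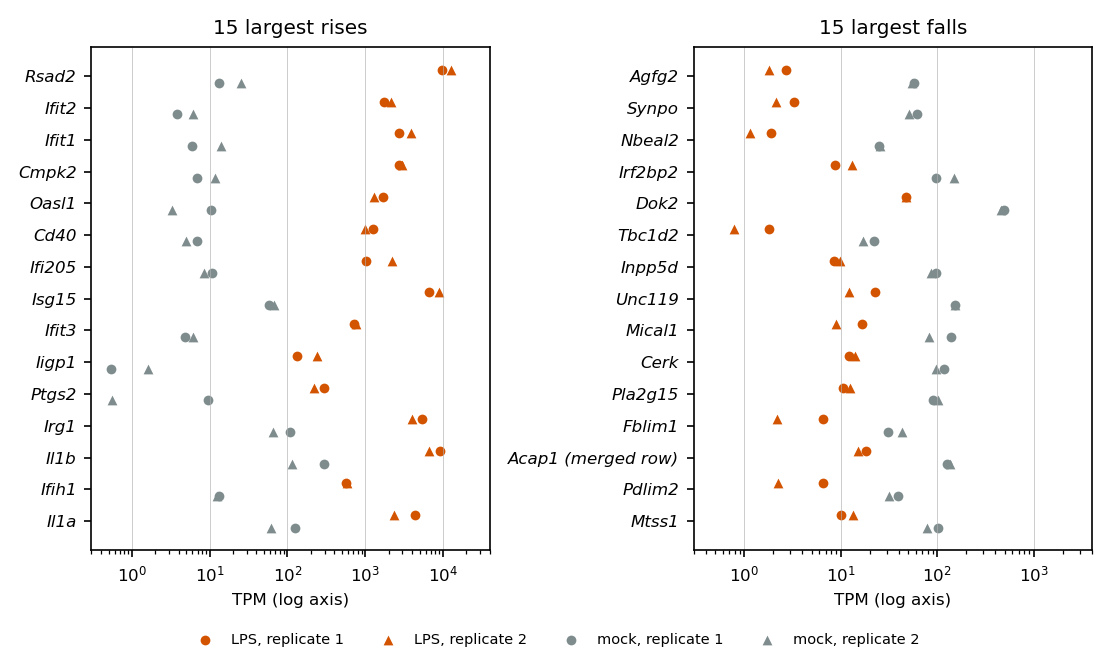
TPM of each library of 4 h, on a log axis, for the 15 largest rises (left) and the 15 largest falls (right); circles are replicate 1 and triangles replicate 2, LPS cells in orange and mock cells in grey. Genes were taken only if both LPS libraries lay on the same side of both mock libraries, so this separation was a condition of entry. The wide gap between the mock libraries of Ptgs2 is visible.

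The sequences before the start sites of 5 interferon-induced genes, 4 of them among the 15 largest rises and Gbp2 from further down, are shown as examples that hold a short element found in many windows of the largest rises. Each stretch is the 160 bases upstream of a RefSeq transcript start on GRCm38.p6, written 5′ to 3′ along the gene, with capitals marking matches to the interferon-stimulated response element, searched as GAAA, any 2 bases and GAAA, or on the other strand TTTC, any 2 bases and TTTC.
Rsad2, chr12:26456453-26456612, minus strand: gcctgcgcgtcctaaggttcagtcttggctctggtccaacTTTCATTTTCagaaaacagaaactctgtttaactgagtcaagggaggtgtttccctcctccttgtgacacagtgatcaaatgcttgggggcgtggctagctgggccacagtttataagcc
Ifit1, chr19:34640729-34640888, plus strand: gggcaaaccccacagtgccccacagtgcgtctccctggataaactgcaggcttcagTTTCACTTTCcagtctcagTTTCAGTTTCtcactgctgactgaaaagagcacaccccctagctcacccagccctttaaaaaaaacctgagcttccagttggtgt
Isg15, chr4:156200819-156200978, minus strand: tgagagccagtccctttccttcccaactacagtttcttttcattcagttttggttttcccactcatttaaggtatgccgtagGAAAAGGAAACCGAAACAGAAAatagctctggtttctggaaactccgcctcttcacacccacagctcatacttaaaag
Ifit3, chr19:34583369-34583528, plus strand: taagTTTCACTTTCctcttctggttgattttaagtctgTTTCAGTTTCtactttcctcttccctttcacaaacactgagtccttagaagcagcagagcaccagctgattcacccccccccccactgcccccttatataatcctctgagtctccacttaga
Gbp2, chr3:142620503-142620662, plus strand: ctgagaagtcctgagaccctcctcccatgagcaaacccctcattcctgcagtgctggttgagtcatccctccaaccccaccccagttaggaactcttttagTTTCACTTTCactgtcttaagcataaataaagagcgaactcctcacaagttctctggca
Rsad2 and Gbp2 each held 1 match in the stretch, Ifit1 and Ifit3 held 2, and Isg15 held 3 that overlap each other. Of the 13 genes among the 15 largest rises that had a window, 6 held the element, and Ifit2, Cmpk2 and Oasl1 were among those with no match. A RefSeq window of 250 bases before to 50 bases after the start was available for 2570 of the 3147 genes. Of the 49 windows of the 50 largest rises, 25 (51%) held the element, as did 41 of 282 windows of all rises (14.5%). Among the falls it was in 13 of 929 windows (1.4%), and in 0 of 48 windows of the 50 largest falls. Its share was 3.49% in genes not called, 3.86% in all genes measured and 3.44% in all 32851 RefSeq windows. An NF-kB type element, searched as GGG, any 3 bases and TTCC, or GGAA, any 3 bases and CCC on the other strand, was in 16.3% of windows of the 50 largest rises, 11% of all rises, 6.67% of falls, 6.94% of all genes measured and 5.56% of all RefSeq windows. An AP-1 element, TGANTCA, which reads the same on both strands, was in 30.6%, 10.6%, 4.31%, 5.13% and 7.81% of the same sets of windows. Of 16 AP-1 matches in windows of the 50 largest rises, 0 overlapped an interferon element, and 9 windows held both. A match is a run of letters and no evidence that a factor binds there.

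Antiviral interferon-stimulated genes rose almost without exception. Of 52 antiviral genes on the list 36 were measured, and 35 rose, with a list median of 3.43 beside -0.46 for all genes. All 35 were called after rescaling too, which could hardly remove a rise. Lgals3bp, a secreted glycoprotein, was the exception, with 332 and 182 TPM in LPS cells, against 129 and 151 TPM in mock cells (adjusted p = 0.265). The cytosolic RNA sensors rose. Ifih1, the sensor of long double-stranded RNA, had 567 and 582 TPM in LPS cells, against 13.3 and 12.5 TPM in mock cells, a change of 5.37 ± 0.28. Ddx58, the RIG-I sensor, had 266 and 295 TPM in LPS cells, against 21.5 and 25.8 TPM in mock cells, a change of 3.51 ± 0.20. The oligoadenylate synthetases, which activate RNA degradation, rose as well. Oas3 had 198 and 160 TPM in LPS cells, against 16.0 and 15.4 TPM in mock cells. Oasl1, an inactive relative, had 1704 and 1302 TPM in LPS cells, against 10.5 and 3.29 TPM in mock cells, a change of 7.73 ± 0.50. The row Oas1g;Oas1a, which merges near-identical paralogs, changed by 3.02 ± 0.45, and reads of Ifi205 (7.19 ± 0.81) may likewise be shared with its close relatives, so these values are uncertain. Among nuclear and signalling members, Daxx, a histone chaperone of nuclear bodies, had 435 and 445 TPM in LPS cells, against 32.6 and 32.7 TPM in mock cells. Parp14, an ADP-ribosyltransferase, changed by 4.02 ± 0.20. The smallest change among the 35 was that of Pnpt1, a mitochondrial RNA-degrading enzyme, at 1.45 ± 0.29.

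The interferon-inducible GTPases, which attack vacuoles that hold bacteria and parasites, all rose. All 8 measured members of 14 on the list were called, also in each fit without 1 library, with changes of 3.36 to 6.50 and a median of 3.97. Gbp2 had 1469 and 1735 TPM in LPS cells, against 111 and 107 TPM in mock cells, and Irgm1 had 599 and 493 TPM in LPS cells, against 31.2 and 31.3 TPM in mock cells. Ifi47 had 691 and 460 TPM in LPS cells, against 14.9 and 19.0 TPM in mock cells, a change of 4.99 ± 0.63. Within each of these genes the replicates of a group lay close together beside the distance between groups. Iigp1 was nearly undetected in mock cells, at 0.535 and 1.59 TPM, and had 132 and 244 TPM in LPS cells. Its change of 6.50 ± 0.56 depends on the pseudocount and was 4.93 with a pseudocount of 5. The merged row Gbp5;Gbp1 had 1059 and 1221 TPM in LPS cells, against 143 and 20.4 TPM in mock cells, so its mock libraries differed widely.

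Cytokine genes were among the most abundant of the rises. Of 34 cytokines and chemokines 6 were measured, and 4 rose, with a list median of 3.10. Ccl5, a chemokine for T cells and monocytes, had 15359 and 12208 TPM in LPS cells, against 1233 and 646 TPM in mock cells, a change of 3.94 ± 0.40. Il1b, the interleukin-1β precursor, had 9217 and 6639 TPM in LPS cells, against 293 and 116 TPM in mock cells, a change of 5.40 ± 0.60. Il1a had 4398 and 2357 TPM in LPS cells, against 123 and 62.4 TPM in mock cells. Il1rn, the natural antagonist of both cytokines, rose less, with 2500 and 1700 TPM in LPS cells, against 544 and 343 TPM in mock cells and a change of 2.25 ± 0.50. In these 4 genes every LPS library exceeded every mock library, as was so for 15.5% of all genes. Ccl6, a chemokine abundant in resting myeloid cells, had 9569 and 8040 TPM in LPS cells, against 12032 and 14782 TPM in mock cells (-0.60 ± 0.24, adjusted p = 0.0595). Mif was not called either, with 934 and 862 TPM in LPS cells, against 968 and 1013 TPM in mock cells.

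A few transcripts carried much of the gain in level. The 10 genes that gained most together gained 72947 TPM, 39.1% of the gain summed over all genes with a higher mean in LPS cells. Ccl5 gained 12844 TPM, Rsad2 11200, the merged row Mir147;AA467197 10793, Il1b 7723 and Isg15 7653. AA467197, a small mitochondrial protein gene that hosts a microRNA, had 13967 and 16225 TPM in LPS cells, against 4155 and 4452 TPM in mock cells, a change of 1.81 ± 0.20. A gain in TPM is not a call. Fth1, the ferritin heavy chain, gained 6800 TPM, but its libraries held 28364 and 13512 TPM in LPS cells and 15287 and 12989 TPM in mock cells, and it was not called (adjusted p = 0.559). Lyz2, lysozyme, changed by -12583 TPM, the largest loss, with 26059 and 10655 TPM in LPS cells and 31040 and 30841 TPM in mock cells, and was not called (adjusted p = 0.395).

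In the list of LPS receptor and Toll-like receptor signalling, calls went both ways before rescaling, with a share of falls below the 29.2% of all genes. Of 33 genes 12 were measured, and 3 rose and 2 fell, 0 of the 2 also after rescaling, with a median of 0.60. Tlr7, an endosomal sensor of single-stranded RNA, had 54.6 and 37.9 TPM in LPS cells, against 11.1 and 9.10 TPM in mock cells, a change of 2.08 ± 0.44. Ikbke, a kinase that activates Irf3, had 272 and 241 TPM in LPS cells, against 100 and 93.2 TPM in mock cells, a change of 1.40 ± 0.21. Irak3, a brake on Myd88 signalling, was called at 0.93 ± 0.27 but not without LPS replicate 1 (adjusted p = 0.163) or mock replicate 2 (0.0614). Cd14, which hands LPS to the receptor, had 1595 and 745 TPM in LPS cells, against 380 and 160 TPM in mock cells. Its groups did not overlap, but it was short of a call with the spread estimated over all 13 groups (2.14 ± 0.84, adjusted p = 0.0558), and it was called when the compared groups were fitted alone (adjusted p = 0.0114). Cd14 and Myd88 were called after rescaling, at which 5 members rose and 0 fell. Tlr2 was not called, and of the 2 falls, Irak4, the kinase that joins Myd88, changed by -0.86 ± 0.18 and was lost after rescaling (adjusted p = 0.096).

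NF-kB genes rose as a group. Of 25 genes 9 were measured, 7 rose and 0 fell, with a median of 1.75, and 4 of the 7 were called in each fit without 1 library. These 4 were Nfkb1, Nfkb2, Tnfaip2 and Tank. Nfkb1, the p105 precursor, had 704 and 553 TPM in LPS cells, against 211 and 163 TPM in mock cells, a change of 1.75 ± 0.26. Nfkb2, the p100 precursor, had 401 and 318 TPM in LPS cells, against 98.9 and 84.8 TPM in mock cells, a change of 1.95 ± 0.35. Tnfaip2, a classical NF-kB target, had 1134 and 1823 TPM in LPS cells, against 256 and 272 TPM in mock cells. For the subunit genes Rel, Rela and Relb the call rested on single libraries. Rel was called at 2.49 ± 0.70, with an adjusted p of 0.0938 without LPS replicate 2 and 0.0693 without mock replicate 2. Rela (0.83 ± 0.32) reached an adjusted p of 0.281 without LPS replicate 1 and 0.301 without mock replicate 2, and Relb (0.51 ± 0.17) 0.128 and 0.265 without the same libraries.

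Transcription factors of interferon signalling were measured in part. Of 27 Irf, Stat and interferon receptor genes 11 were measured, and 4 rose and 2 fell, 1 of the 2 also after rescaling. That share of falls was below the 29.2% of all genes. The rises included Stat2, Stat3 and Stat5a. Stat2, a factor of type I interferon signalling, had 491 and 594 TPM in LPS cells, against 61.6 and 82.5 TPM in mock cells, a change of 2.90 ± 0.24. Stat5a, which acts downstream of GM-CSF, had 274 and 249 TPM in LPS cells, against 41.7 and 38.9 TPM in mock cells, a change of 2.67 ± 0.30. Stat6, the factor of interleukin-4, had 101 and 93.1 TPM in LPS cells, against 109 and 90.7 TPM in mock cells. Its groups overlapped. The row of Stat5b was not called either (0.89 ± 0.42, adjusted p = 0.105). Irf2bp2, a corepressor partner of Irf2, fell to 8.79 and 13.1 TPM in LPS cells, against 96.1 and 149 TPM in mock cells (-3.36 ± 0.57). Irf5 was the second fall (-0.73 ± 0.14) and Irf3 and Irf4 were not called. Other Irf genes, such as Irf7, were not analysed here. MAP kinase and AP-1 genes, 12 of 26 measured, gave 1 rise and 4 falls, close to the 29.2% of all genes that fell. After rescaling 2 of the 4 falls were called too. Of these, Map2k3, a kinase upstream of p38, was called in each fit without 1 library, at -1.29 ± 0.23.

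Genes of antigen presentation on class I molecules rose. Of 19 class I and immunoproteasome genes 13 were measured, 8 rose and 0 fell, with a median of 1.16, and 6 of the 8 were called in each fit without 1 library. Tap1, a subunit of the peptide transporter of the endoplasmic reticulum, had 623 and 560 TPM in LPS cells, against 83.6 and 86.0 TPM in mock cells, a change of 2.79 ± 0.15. Its partner Tap2 changed by 1.31 ± 0.22 and Tapbp, which tethers the transporter to class I molecules, by 1.43 ± 0.23. Psmb9, an immunoproteasome subunit, had 432 and 300 TPM in LPS cells, against 117 and 127 TPM in mock cells. Psmb10, another, had 457 and 517 TPM in LPS cells, against 196 and 191 TPM in mock cells. B2m, the light chain of class I, was already abundant, with 7637 and 6486 TPM in LPS cells, against 6147 and 6191 TPM in mock cells, and was not called (adjusted p = 0.369). The general chaperones Calr, Canx and Pdia3 and the peptidase Erap1 were not called. Of the 31 measured constitutive proteasome genes 0 rose and 0 fell, with a median of -0.08 (0.38 after rescaling, when 6 rose).

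Class II genes were not called at 4 h. Of 12 genes 7 were measured, 0 rose and 0 fell, and the median of 0.12 turned to -0.05 under quantile normalization; 1 gene rose after rescaling and 1 fell under quantile normalization. H2-Aa had 3918 and 3390 TPM in LPS cells, against 3160 and 3400 TPM in mock cells, and the groups overlapped. Cd74, the invariant chain, had 10439 and 5024 TPM in LPS cells, against 8053 and 5539 TPM in mock cells, and also overlapped. The SE of Cd74, from its spread pooled over all 13 groups, was 0.71, so a change of that size would not have been detectable here.

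Maturation genes rose. Of 24 genes 11 were measured, 8 rose and 0 fell, with a median of 2.08, and 6 of the 8 were called in each fit without 1 library. Cd40, the receptor through which T cells license dendritic cells, had 1265 and 1009 TPM in LPS cells, against 6.95 and 4.95 TPM in mock cells, a change of 7.36 ± 0.42. Cd274, the inhibitory ligand PD-L1, had 814 and 888 TPM in LPS cells, against 180 and 150 TPM in mock cells, a change of 2.36 ± 0.22. Marcksl1, a membrane and actin binding protein, had 2221 and 2182 TPM in LPS cells, against 301 and 162 TPM in mock cells, a change of 3.31 ± 0.30. All 3 were separated by group with no overlap, LPS above mock, as were 15.5% of all genes. Receptors for uptake, 16 of 34 measured, gave 1 rise and 3 falls, 2 of them also after rescaling, and the list median of -0.38 became 0.07 after rescaling. Their share of falls was below the 29.2% of all genes. Clec10a, a galactose-binding lectin, had 50.6 and 50.2 TPM in LPS cells, against 197 and 156 TPM in mock cells (-1.78 ± 0.36). Lrp1, a scavenger receptor of the low density lipoprotein family, had 23.5 and 29.0 TPM in LPS cells, against 72.6 and 86.3 TPM in mock cells (-1.57 ± 0.21).

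**Figure D3:**
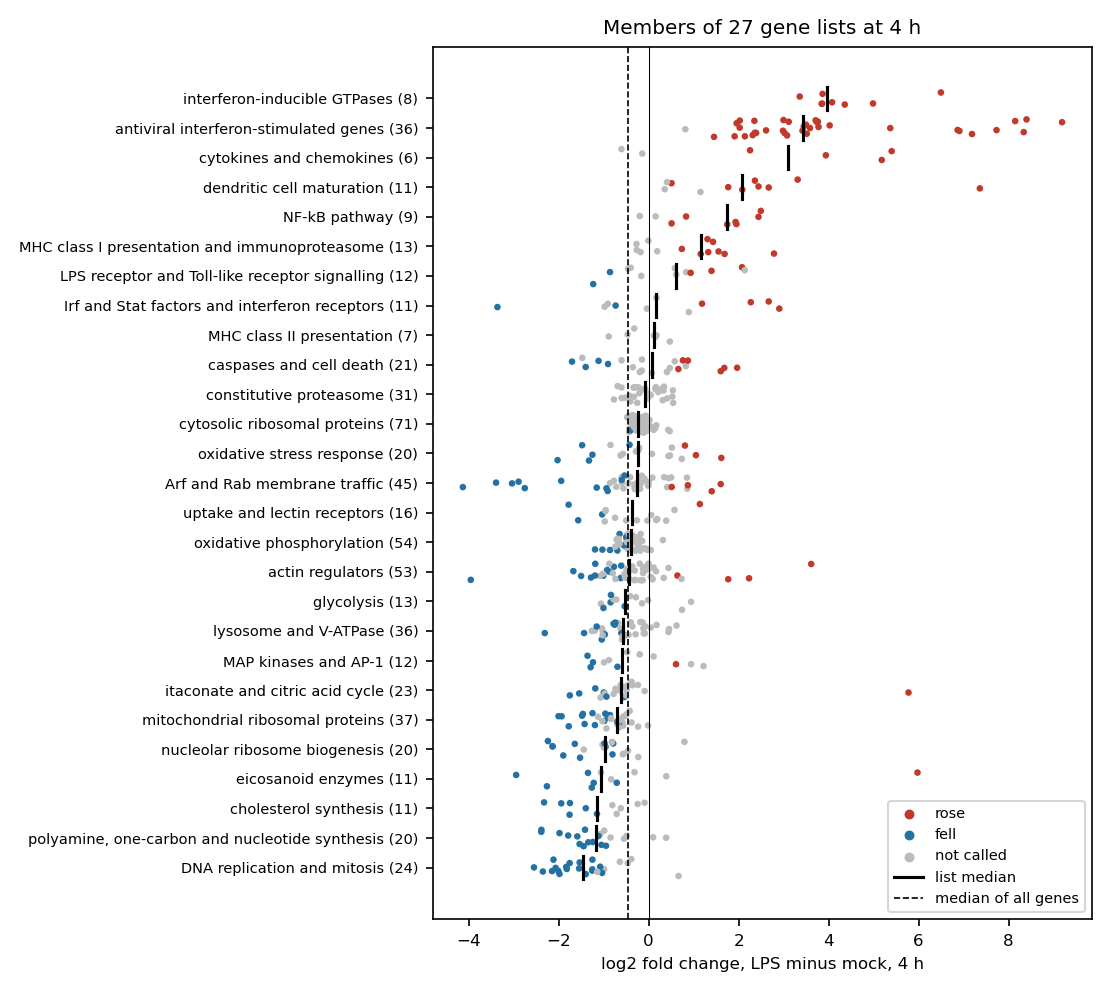
Each point is a measured member of 1 of 27 gene lists, placed by its log2 fold change, LPS minus mock, at 4 h; red rose, blue fell, grey was not called, and the black bar is the list median. Medians run from 3.97 for the interferon-inducible GTPases to -1.46 for DNA replication and mitosis, and the dashed line at -0.46 is the median of all genes; vertical scatter within a row has no meaning.

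The 2 cyclooxygenase genes moved in opposite directions. Ptgs2, the inducible enzyme, had 298 and 217 TPM in LPS cells, against 9.65 and 0.548 TPM in mock cells. Its change of 5.97 ± 1.05 ranged from 4.58 to 7.37 when 1 library was left out and was 4.85 with a pseudocount of 5. The mock libraries differed widely, yet both lay far below both LPS libraries. Ptgs1, the constitutive enzyme, had 29.1 and 25.5 TPM in LPS cells, against 139 and 129 TPM in mock cells (-2.26 ± 0.23). The direction of both held after median-ratio rescaling and quantile normalization. The former raised the change of Ptgs2 to 6.37 and so was no test of its rise. Of the 11 measured of 16 eicosanoid genes, 1 rose and 6 fell, 2 of the 6 also after rescaling, namely Ptgs1 and Pla2g15. The shares for all genes were 29.2% fallen, and 12.9% lower after rescaling. Pla2g15, a lysosomal phospholipase, had 10.6 and 12.6 TPM in LPS cells, against 89.9 and 102 TPM in mock cells (-2.94 ± 0.22).

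In metabolism 1 gene of the citric acid cycle list rose. Irg1, the enzyme that makes itaconate from an intermediate of the cycle, had 5361 and 3976 TPM in LPS cells, against 107 and 64.8 TPM in mock cells, a change of 5.78 ± 0.45. Of the 23 measured genes on its list 6 fell, 2 of them also after rescaling, Idh1 and Idh3a. Idh1, the cytosolic isocitrate dehydrogenase, had 74.2 and 57.9 TPM in LPS cells, against 210 and 237 TPM in mock cells (-1.75 ± 0.18). Idh3a, a subunit of the mitochondrial enzyme, changed by -1.54 ± 0.36. Of 13 measured glycolytic genes 0 rose and 4 fell, 0 of them also after rescaling. Of 54 oxidative phosphorylation genes 0 rose and 8 fell, 0 of them after rescaling, and the median of -0.39 became 0.06 there. The citric acid cycle and glycolysis lists had shares of falls close to the 29.2% of all genes, and the oxidative phosphorylation list a smaller one.

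Genes of sterol and nucleotide synthesis fell, beside 29.2% of all genes before rescaling and 12.9% after it. Of 11 measured cholesterol genes 6 fell, 5 of them also after rescaling and 4 in each fit without 1 library, with a median of -1.15. Mvd, the decarboxylase of the mevalonate pathway, had 41.2 and 31.6 TPM in LPS cells, against 114 and 135 TPM in mock cells (-1.76 ± 0.30). Lss, which forms the first sterol ring, changed by -1.94 ± 0.47. Under quantile normalization 3 cholesterol genes fell and the calls of Lss (-1.07, adjusted p = 0.0511), Mvk and Nsdhl were lost. Of 20 measured genes of polyamine, one-carbon and nucleotide synthesis 13 fell, 11 also after rescaling and 5 in each fit without 1 library, with a median of -1.18. Under quantile normalization 4 fell and the median was -0.52. Gart, an enzyme of purine synthesis, had 11.2 and 12.8 TPM in LPS cells, against 55.9 and 45.1 TPM in mock cells (-1.98 ± 0.37). In the oxidative stress list, 20 measured, 3 rose and 5 fell, 1 of the 5 also after rescaling. Falls were no larger a share there than the 29.2% of all genes. Sod2, the mitochondrial superoxide dismutase, had 694 and 718 TPM in LPS cells, against 222 and 238 TPM in mock cells, a change of 1.62 ± 0.15. Gclm, a subunit of the first enzyme of glutathione synthesis, changed by -1.48 ± 0.23.

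DNA replication and mitosis had the lowest median of the 27 lists. Falls made up 29.2% of all genes before rescaling and 12.9% after it. Of 39 genes 24 were measured, 0 rose and 18 fell, 17 of them also after rescaling and 17 in each fit without 1 library, with a median of -1.46. All 6 genes of the replicative helicase, Mcm2 to Mcm7, fell. Mcm2 had 4.50 and 7.05 TPM in LPS cells, against 41.7 and 34.4 TPM in mock cells (-2.55 ± 0.23), and Mcm3 changed by -2.12 ± 0.25. Dnmt1, which copies DNA methylation, had 9.74 and 9.79 TPM in LPS cells, against 46.2 and 42 TPM in mock cells (-2.07 ± 0.19). Cdk1, the kinase of mitotic entry, changed by -1.40 ± 0.20. In each of these genes both LPS libraries lay below both mock libraries, as they did for 58.2% of all genes.

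For the genes of the ribosome, counts were taken separately for the cytosol, mitochondria and nucleolus. Of 71 cytosolic ribosomal protein genes 0 rose and 1 fell, and their median of -0.23 became 0.23 after rescaling. Of 37 mitochondrial ribosomal protein genes 0 rose and 16 fell, 6 of them also after rescaling, with a median of -0.70 that became -0.26 there. Among all genes 29.2% fell, and 12.9% were lower after rescaling, a share near that of the mitochondrial list after rescaling. Mrpl12, of the large mitochondrial subunit, had 53.6 and 58.3 TPM in LPS cells, against 206 and 227 TPM in mock cells (-1.93 ± 0.19). Of 20 measured nucleolar genes of ribosome assembly 0 rose and 11 fell, 5 of them also after rescaling. Nop16 changed by -2.24 ± 0.33 and Nolc1, a nucleolar chaperone, by -2.14 ± 0.35.

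Of the 15 largest falls, Agfg2, Nbeal2, Mical1 and the merged row of Acap1 were on the Arf and Rab list and Synpo was on the actin list. All 15 were called after rescaling and in each fit without 1 library. Agfg2, a relative of Arf GTPase activating proteins, had 2.72 and 1.83 TPM in LPS cells, against 57.1 and 54.4 TPM in mock cells (-4.13 ± 0.45, and -3.06 with a pseudocount of 5). Synpo, an actin-associated protein, had 3.32 and 2.13 TPM in LPS cells, against 61.4 and 51.0 TPM in mock cells (-3.95 ± 0.27). Nbeal2, a vesicle protein needed for platelet granules, had 1.92 and 1.16 TPM in LPS cells, against 25.0 and 25.7 TPM in mock cells (-3.39 ± 0.29). These 3 genes came close to the bottom of the scale in LPS cells, where the pseudocount limits the fold change. At higher levels, Dok2, an adaptor that restrains tyrosine kinase signalling, had 47.1 and 47.8 TPM in LPS cells, against 491 and 458 TPM in mock cells (-3.29 ± 0.19). Inpp5d, the inositol phosphatase SHIP, had 8.51 and 9.87 TPM in LPS cells, against 96.6 and 86.3 TPM in mock cells (-3.18 ± 0.16). Unc119, a carrier of lipid-modified proteins, had 22.6 and 12.1 TPM in LPS cells, against 153 and 153 TPM in mock cells (-3.13 ± 0.28). Cerk, ceramide kinase, had 12.1 and 14.0 TPM in LPS cells, against 119 and 96.7 TPM in mock cells (-2.95 ± 0.21). The groups of all these genes were far apart beside the spread within them, and lack of overlap was a condition for the 15 largest falls.

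The lists of Arf and Rab traffic, actin regulators and lysosome genes had shares of falls close to or below the 29.2% of all genes. Of 45 measured Arf and Rab genes 4 rose and 11 fell, 6 of the 11 also after rescaling, and the median of -0.25 became 0.20 there. Rab8b, a GTPase of transport to the plasma membrane, had 415 and 389 TPM in LPS cells, against 139 and 125 TPM in mock cells, a change of 1.60 ± 0.25. Rab31 changed by -1.94 ± 0.21. Of 53 measured actin regulators 4 rose and 13 fell, 7 of the 13 also after rescaling, and the median of -0.43 became 0.03. Fmnl2, a formin that extends actin filaments, had 58.7 and 75.3 TPM in LPS cells, against 14.1 and 12.7 TPM in mock cells, a change of 2.23 ± 0.20. Coro1c, which binds branched actin, changed by -1.67 ± 0.23. Of 36 measured lysosome genes 0 rose and 10 fell, 3 of them also after rescaling, when 4 others rose. Manba, a lysosomal mannosidase, changed by -2.31 ± 0.39.

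In the list of caspases and cell death, 21 of 31 measured, 6 rose and 4 fell, 1 of the 4 also after rescaling. Falls were a smaller share than the 29.2% of all genes. The 3 rises called in each fit without 1 library were Casp1, Nlrp3 and Mlkl. Casp1, which cleaves pro-interleukin-1β, had 168 and 208 TPM in LPS cells, against 59.8 and 62.3 TPM in mock cells, a change of 1.60 ± 0.23. Nlrp3, the inflammasome sensor, had 300 and 222 TPM in LPS cells, against 96.8 and 65.8 TPM in mock cells, a change of 1.68 ± 0.23. Mlkl, the effector of necroptosis, had 109 and 148 TPM in LPS cells, against 29.2 and 34.3 TPM in mock cells, a change of 1.97 ± 0.24. Casp6, an executioner caspase, changed by -1.70 ± 0.41 and was the fall called after rescaling too, but it was not called under quantile normalization (-0.95, adjusted p = 0.0672). Pycard, the inflammasome adaptor, had 163 and 105 TPM in LPS cells, against 284 and 285 TPM in mock cells (-1.11 ± 0.30), and its fall was not called after rescaling or without LPS replicate 2 (adjusted p = 0.105). Ripk3, the kinase that activates Mlkl, had 27.9 and 12.8 TPM in LPS cells, against 53.7 and 49.7 TPM in mock cells (-1.40 ± 0.43). Its fall was not called after rescaling (adjusted p = 0.0966), nor in 3 of the 4 fits without 1 library.

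The 4 h calls were then set beside those of the sampled times before and after. At 2 h 6.39% of genes were higher and 8.04% lower in LPS cells, and at 6 h 11.2% and 30%. Of the 275 rises at 4 h, 157 were called higher at 2 h (57.1% of the 4 h rises and 78.1% of the 201 at 2 h) and 248 at 6 h (90.2%, and 70.3% of the 353 at 6 h). Of the 918 falls, 222 were called lower at 2 h (24.2%, and 87.7% of the 253 at 2 h) and 697 at 6 h (75.9%, and 73.8% of the 945 at 6 h). The largest effect of a rise among the 6 times was at 6 h for 122 genes and at 4 h for 46, whereas that of a fall was at 4 h for 389 and at 6 h for 230. A gene called at 4 h has by its choice a large 4 h effect, so these counts are a description.

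The difference between the 4 h and the 2 h response was tested as the 4 h effect minus the 2 h effect. It was called for 101 genes (3.21%), more positive at 4 h for 30 (0.953%) and more negative for 71 (2.26%), with 475 genes (15.1%) at an unadjusted p under 0.05. After median-ratio rescaling the split was 57 (1.81%) against 34 (1.08%), all 30 and 34 of the 71 among them. Rescaling raised this difference as well, for Tap1 from 1.41 to 1.71, so it could hardly remove any of the 30. Fitted to the 4 compared groups alone, with 4 residual degrees of freedom, 0 genes were called in either direction, the smallest adjusted p was 0.0516 and 538 genes had an unadjusted p under 0.05. Leaving out 1 library gave 11 to 29 and 22 to 52 genes. The lower counts came without LPS 2 h replicate 2 (11 and 26), mock 2 h replicate 1 (11 and 22), LPS 4 h replicate 2 (12 and 30), mock 4 h replicate 1 (12 and 22) and mock 4 h replicate 2 (13 and 31), and 8 and 18 genes were called in all 8 such fits. Without mock 2 h replicate 2, 45 genes were more negative.

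All 30 genes with a more positive effect were also rises at 4 h, and 13 of them were on the antiviral, GTPase or class I lists, 7, 3 and 3. Those called in all 8 fits without 1 library included Ifit2, Iigp1, Gbp2, Ddx58 and Tap1. The effect of Ifit2 was 8.40 ± 0.33 at 4 h, against 5.73 ± 0.33 at 2 h. That of Iigp1 was 6.50 ± 0.56 at 4 h, against 2.21 ± 0.56 at 2 h, the widest difference of the 30 at 4.28 ± 0.79 (adjusted p = 0.00696), though it was not called with a pseudocount of 0.1 (4.68, adjusted p = 0.0811). Gbp2 had an effect of 3.86 ± 0.26 at 4 h, against 1.73 ± 0.26 at 2 h, and Tap1 of 2.79 ± 0.15 at 4 h, against 1.38 ± 0.15 at 2 h. These 4 genes had already been called higher at 2 h. Bst2, the tetherin that holds virus particles on the cell, had no detectable effect at 2 h (-0.05 ± 0.34) beside 1.96 ± 0.34 at 4 h, and Kynu, an enzyme of tryptophan breakdown, had 2.89 ± 0.36 at 4 h, against 0.47 ± 0.36 at 2 h. Both differences were called in 2 of the 8 fits without 1 library.

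Of the 71 genes with a more negative effect at 4 h, 63 were falls at 4 h and 9 had been called higher at 2 h. Iqsec1, an activator of Arf6, changed sides, with an effect of -1.55 ± 0.27 at 4 h, against 0.85 ± 0.27 at 2 h, a difference of -2.40 ± 0.38 (adjusted p = 0.00271). Eps8, which caps actin filaments, had -2.74 ± 0.25 at 4 h, against -0.44 ± 0.25 at 2 h. Dok2 had -3.29 ± 0.19 at 4 h, against -1.29 ± 0.19 at 2 h, and Inpp5d -3.18 ± 0.16 at 4 h, against -1.48 ± 0.16 at 2 h. From the replication list Mcm2, Rpa1 and Dnmt1 were called, Mcm2 with -2.55 ± 0.23 at 4 h, against -0.72 ± 0.23 at 2 h. Iqsec1, Eps8, Dok2, Inpp5d, Mcm2 and Rpa1 were called in all 8 fits without 1 library. The merged row H1f0;Icam1, which joins a linker histone with an adhesion molecule and cannot be assigned to either, had 0.36 ± 0.18 at 4 h, against 1.55 ± 0.18 at 2 h, a difference lost after rescaling (adjusted p = 0.0574).

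**Figure D4:**
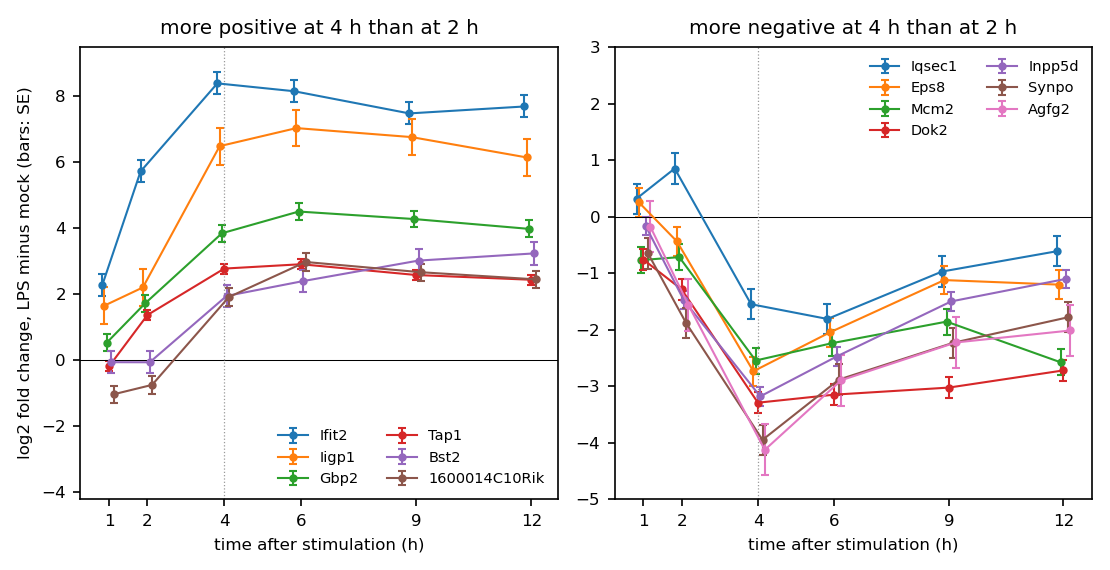
Log2 fold change, LPS minus mock, with SE bars, at 1, 2, 4, 6, 9 and 12 h for 6 genes with a more positive effect at 4 h than at 2 h (left) and 7 with a more negative one (right); points are shifted slightly along the time axis so that bars can be seen. Ifit2 stood at 8.40 at 4 h, against 5.73 at 2 h, and Agfg2 at -4.13 at 4 h, against -1.57 at 2 h, a difference not called after rescaling (adjusted p = 0.0716).

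Against 6 h the 4 h effect did not differ for any gene at adjusted p under 0.05 in limma (0 higher and 0 lower). At an unadjusted p under 0.05 there were 157 genes (4.99%), and the smallest adjusted p was 0.821. The median SE of this difference was 0.434, so a moderate difference between the times could not have been called for most genes. Mock cells at 4 h were likewise set against unstimulated cells at 0 h as a measure of background, and 0 genes were higher and 0 lower, with 37 (1.18%) at an unadjusted p under 0.05. Rsad2, for example, had 13.1 and 24.9 TPM in mock cells at 4 h and 7.09 and 9.16 TPM at 0 h.

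Transcript length, GC content and the footprint levels of resting cells, which the comparison did not use, are given as a description of the called sets. The median transcript length was 2623 bases for rises and 2104 for falls, against 1976 for all genes. The median GC content was 49.61% for rises and 52.45% for falls, against 50.59% for all genes. Across genes the 4 h effect had a Spearman rho of 0.02 with length and -0.22 with GC content, and genes are not independent replicates. In ribosome footprints of resting cells the median level was 33.5 TPM for 226 rises and 38.6 TPM for 804 falls, against 44.7 TPM for all 2739 genes with a value.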

How the data were processed

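RNA was poly(A)-selected and made into strand-specific libraries, per the labels' protocols. RNA values are deposited in TPM, and the submitters' processing notes name RSEM 1.2.3, Bowtie 0.12.7 and the build mm9. The resting footprint values are also deposited as TPM. The RNA table lists 3147 rows, of which 363 join several names, and no total count per library is given, so depth is unknown and precision rests on the number of libraries and their spread.

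Values were transformed to log2(TPM + 1). A minimum of 1 TPM in 2 or more libraries removed no gene. One limma model (version 3.58.1, R 4.3.3) held all 26 RNA libraries, with a mean for each of 13 groups, a trend of variance with level and 13 residual degrees of freedom, since each group has 2 libraries. Contrasts were LPS minus mock at 4 h, that effect minus the 2 h and the 6 h effect, and mock at 4 h minus 0 h. P-values were adjusted by Benjamini-Hochberg across the 3147 genes, and 0.05 was the threshold for a call. The fits were also run on simulated data, with independent noise in each library and no shift of the median gene. The real libraries had correlated deviations and such a shift, so that run gives no error rate for the calls here.

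The rule for named genes gave the 15 largest rises and falls with groups that do not overlap, the 10 most abundant each way, for each list its extremes and its most abundant gene, the 8 largest differences between times in each direction, LPS controls, and any member of lists of 12 or fewer. Further members of longer lists, and genes singled out for call stability, were chosen after their values were seen. One gene that the rule names is not reported here. Members, gene lists and motifs were chosen with earlier results of these data known.

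Settings varied were the pseudocount (0.1 and 5), the filter (10 TPM and none), median-ratio rescaling, quantile normalization, a replicate block, the compared groups alone, removal of trends with transcript length and GC content, and each library left out. Length and GC content were medians over the protein-coding GENCODE transcripts of a gene. Promoter windows came from RefSeq (GRCm38.p6), a later build than the authors used. Both were matched by name. No coordinates of mm9 were used. Plots were made in Python 3.11.15 with matplotlib 3.10.9.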

Additional observations from a re-analysis of the deposited data

Results flagged for a closer look

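The results below are those whose LPS effect at 4 h differed from that at 2 h in limma's test of the difference itself, among the genes named by rule. Values are the 4 h effect minus the 2 h effect on the log2 scale. The effect was more positive at 4 h by 4.28 for Iigp1, 2.67 for Ifit2, 2.66 for 1600014C10Rik, 2.42 for Kynu, 2.12 for Gbp2, 2.10 for Uba7 (the row AK157941;Uba7;Ube1l), 2.01 for Oas3, 2.01 for Bst2, 1.72 for Gbp3, 1.72 for Mlkl and 1.41 for Tap1. All of these were called after median-ratio rescaling too, which raised the difference and so was no test of them. Of the 8 fits without 1 library, Iigp1, Ifit2, 1600014C10Rik, Gbp2 and Tap1 were called in all 8, Oas3 and Mlkl in 6, Uba7 and Gbp3 in 3, and Kynu and Bst2 in 2. With a pseudocount of 0.1 Iigp1 was not called (adjusted p = 0.0811).

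The effect was more negative at 4 h by -2.56 for Agfg2, -2.40 for Iqsec1, -2.40 for Appl2, -2.30 for Eps8, -2.28 for Ctps, -2.26 for the merged row of Acap1, -2.22 for Fblim1, -2.11 for Unc119, -2.07 for Synpo, -2.01 for Dok2, -1.94 for Cerk, -1.83 for Mcm2, -1.79 for Mtss1, -1.77 for Nbeal2, -1.70 for Inpp5d, -1.28 for Idh1, -1.21 for Ptgs1 and -1.20 for the merged row H1f0;Icam1. After median-ratio rescaling 6 of these 18 lost the call, namely Agfg2, Ctps, the Acap1 row, Idh1, Ptgs1 and H1f0;Icam1. Genes that lost it under quantile normalization included Agfg2, Ctps, the Acap1 row, Appl2 (adjusted p = 0.0789) and Fblim1 (0.0859). Of the 8 fits without 1 library, Ctps was called in 0, Nbeal2 and Ptgs1 in 1, Agfg2, Appl2 and the Acap1 row in 2, and Fblim1 in 3. In the fit to the compared groups alone none of these or of the positive differences reached an adjusted p under 0.05 (smallest over all genes 0.0516).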

How the results depend on the processing

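Pseudocounts, filters, the compared groups alone and removal of length and GC trends kept the counts of rises and falls at 4 h within 1.5 times. Median-ratio rescaling gave 445 higher and 405 lower, and quantile normalization 442 lower. Leaving out 1 library gave 207 to 235 higher and 580 to 742 lower. A group left with 1 library is assumed to vary like the others, and its larger standard error alone costs calls. For 4 h minus 2 h, the compared groups alone gave 0 and 0, rescaling 57 and 34, quantile normalization 16 lower, and leaving out 1 library 11 to 29 and 22 to 52. For mock at 4 h minus 0 h, 1 gene was higher without 0 h replicate 1. After rescaling the sign reversed for Tmsb4x (0.43), Rps16 (0.054), Ftl1 (0.03) and Sh3bgrl3 (0.008). The cause of these moves was not tested.

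Nothing in the labels says what equal replicate numbers share. Deviations of equal numbers correlated at 0.227 between LPS and mock at 4 h, the lowest of the 6 LPS and mock pairs of equal time (highest 0.685). They correlated above 0.1 in 76 of 78 pairs of groups (lowest 0.05, highest 0.834). Mock cells at 4 h stood apart, at 0.05 to 0.328 with every other group. LPS cells at 4 h correlated at 0.501 to 0.736 with the groups other than mock at 4 h. The cause was not tested. With a replicate block 382 genes were higher and 1414 lower at 4 h, 84 and 279 for 4 h minus 2 h, and 1 and 1 for 4 h minus 6 h. With the block and length and GC trends removed, the counts were 1395 lower at 4 h, 93 and 291 for 4 h minus 2 h, and 2 and 2 for 4 h minus 6 h. All 275 rises and all 918 falls were called with the block too. In this balanced layout the block left the fold changes as they were, for Cd14 at 2.14 in both fits. It took out only spread shared by replicate numbers and could hardly remove a call, so it was no test of the calls.

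Depth is unknown, so no detection limit can be given. The median standard error of the 4 h effect was 0.307 on the log2 scale, and small changes of single genes are not resolved with 2 libraries per group.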
